A study of Mus musculus with 26 samples.

Results

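The CDC-like kinases (CLK) of the mouse are encoded by 4 genes, Clk1, Clk2, Clk3 and Clk4, and these were followed through heat, oxidative and osmotic stress in NIH3T3, a long-established mouse fibroblast line of embryonic origin. The genes were taken by symbol and not by a cut on measured values, but with earlier results of these data known. They made up 4 of 20430 gene symbols in the RNA tables and 4 of 19941 in the ribosome footprint tables, and all 4 passed the filter on low counts in every fit. RNA sequencing of polyA-selected RNA covered 8 groups of 2 libraries: a control for heat, 44 °C for 2 h, 42 °C for 8 h, a separate control for H2O2 and KCl, H2O2 for 2 h and 7 h (oxidative stress), and KCl for 2 h and 7 h (osmotic stress). Ribosome footprints, the mRNA fragments that ribosomes protect from digestion, covered 5 groups of 2 libraries: the H2O2 and KCl control and the same 4 H2O2 and KCl groups. The labels give no dose of H2O2 or KCl, and the heat groups differ in both temperature and time, which cannot be told apart. Nothing in the labels says that replicates came from separate cultures, so the p-values measure only the spread between these libraries, which may be technical. The study asked how stress-induced transcription past gene ends into neighbouring genes relates to intron retention.

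CLK proteins are dual-specificity kinases of the LAMMER family that sit mainly in the nucleus. They phosphorylate the serine and arginine repeats of SR proteins, the splicing factors that bind exons and help the spliceosome to choose splice sites, and the phosphate state of SR proteins changes where they are in the nucleus and what they bind. Clk1 and Clk4 are close paralogs, and transcripts of both are known to keep introns in unstressed cells and to have them removed when CLK activity falls or cells are heated. SR protein kinases (SRPK) act on the same substrates mainly in the cytoplasm, and nuclear protein phosphatase 1 (PP1) acts in the opposite direction.

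In RefSeq on GRCm38.p6, Clk1 lies at chr1:58411988-58424088, Clk2 on the plus strand at chr3:89164795-89177087, Clk3 on the minus strand at chr9:57750621-57766235 and Clk4 on the plus strand at chr11:51263114-51281770. The 250 bases before an annotated start, from RefSeq on the same build, are printed for Clk2, Clk3 and Clk4. At 2 h of H2O2 and of KCl, Clk2 RNA fell, Clk4 RNA rose and Clk3 RNA was not called. The promoter table used here has no window for Clk1, so none is printed for it. The printed windows run 5′ to 3′ on the strand of the gene, at chr3:89164545-89164794 for Clk2, chr9:57765115-57765364 for Clk3 and chr11:51262864-51263113 for Clk4. The Clk2 and Clk4 windows end at the base before the span given above. The Clk3 window lies inside its span, so its annotated start is not the outermost base of the gene. Capitals mark matches to 5 motifs linked to these stresses, searched on both strands.
Clk2: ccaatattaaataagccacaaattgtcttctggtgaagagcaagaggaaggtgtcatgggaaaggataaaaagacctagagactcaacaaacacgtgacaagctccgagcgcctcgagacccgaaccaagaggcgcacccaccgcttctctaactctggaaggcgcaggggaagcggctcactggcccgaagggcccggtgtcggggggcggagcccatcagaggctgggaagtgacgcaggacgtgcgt
Clk3: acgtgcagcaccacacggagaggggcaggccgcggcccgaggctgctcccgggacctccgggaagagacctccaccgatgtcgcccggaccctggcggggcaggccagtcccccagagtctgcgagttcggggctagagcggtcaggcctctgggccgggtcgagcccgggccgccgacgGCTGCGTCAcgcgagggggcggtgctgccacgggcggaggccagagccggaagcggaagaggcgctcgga
Clk4: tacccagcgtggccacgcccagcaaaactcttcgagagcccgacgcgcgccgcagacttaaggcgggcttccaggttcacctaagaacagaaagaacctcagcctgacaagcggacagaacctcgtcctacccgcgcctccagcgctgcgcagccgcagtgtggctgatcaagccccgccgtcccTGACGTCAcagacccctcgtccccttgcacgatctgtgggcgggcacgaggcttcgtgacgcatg
The Clk4 sequence holds the cAMP response element TGACGTCA, its first base 65 bases before the start, as do 1.56% of 32536 promoter windows of the same length. The Clk3 sequence holds GCTGCGTCA, its first base 70 bases before the start, which matches the core of the antioxidant response element (TGACNNNGC) on the other strand, a motif in 10.2% of windows. The motif letters for a heat shock element pair (GAANNTTC, in 6.72% of windows), for the core bound by NFAT5 (TGGAAA, 18.6%) and for an AP-1 site (TGANTCA, 6.73%) were not in these 3 windows. None of the 5 was in the Clk2 window. A match is a description of the letters, and binding was not tested.

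RNA libraries held between 24441877 and 45244430 expected counts and footprint libraries between 1460751 and 5168537. Genes chosen to check the labels rose in the RNA of their stress. Against the controls the chaperone genes Hsph1 and Dnajb1 rose by 2.99 and 0.89 (log2) at 44 °C and by 2.80 and 3.27 at 42 °C. Hmox1 (heme oxygenase 1) rose by 3.26 after 2 h and 2.97 after 7 h in H2O2. Slc5a3, an osmolyte transporter, rose by 1.97 after 2 h and 2.32 after 7 h in KCl. These genes were not particular to 1 stress: all 4 were called higher at 44 °C, and Hsph1 had the largest rise of the 4 at 7 h of KCl. The 8 fibroblast markers summed to between 4150 and 11300 TPM (transcript abundance scaled to transcript length and library size). Of 16 markers of other cell types, Cd3e of T cells and Snap25 of neurons were at 0 in all 16 RNA libraries, and 4 reached 5 TPM or more: Cd68 of macrophages (5.32 to 44.7 TPM), Tubb3 of neurons (3.11 to 32.7), Krt18 of epithelia (6.46 to 17.2) and Des of muscle (0.03 to 5.3). Ptprc, the defining leukocyte marker, stayed at or below 0.05 TPM, Rbfox3 of neurons at or below 0.15 and Myod1 of muscle at or below 0.05. Where the fibroblast markers, Cd68, Tubb3 or Des were called against a control, this is given beside the CLK result. Epithelial and endothelial markers moved as well and are not all listed. Among them Krt18 rose at 2 h of KCl and fell at 7 h of H2O2. The part of any marker shift in the CLK results was not tested. Scaling mattered at 42 °C and at 2 h of KCl: against the control, the median of all genes was -0.01 (log2) at 42 °C and 0 at 2 h of KCl on TMM-scaled counts, but -0.18 and -0.11, respectively, on the deposited TPM. The share of called genes that were higher moved with it, from 49.8% to 23.9% at 42 °C and from 50.2% to 33.8% at 2 h of KCl.

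In unstressed cells Clk1 was the most abundant of the 4 transcripts and Clk2 and Clk4 the least. On the TPM scale, which corrects for transcript length, Clk1 measured 69.4 and 64.5 in the 2 heat controls and 72.9 and 67.9 in the 2 H2O2 and KCl controls. Clk3 followed with 49.8 and 46.1, and 48.6 and 49.8 TPM. Clk4 measured 32.8 and 31.7, and 35.0 and 35.7 TPM, and Clk2 31.7 and 31.2, and 32.9 and 35.0 TPM, so these last 2 genes overlapped while Clk1 and Clk3 stood apart from each other and from the rest. The 4 transcripts together made 173 to 189 TPM in the 4 control libraries.

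**Figure D1:**
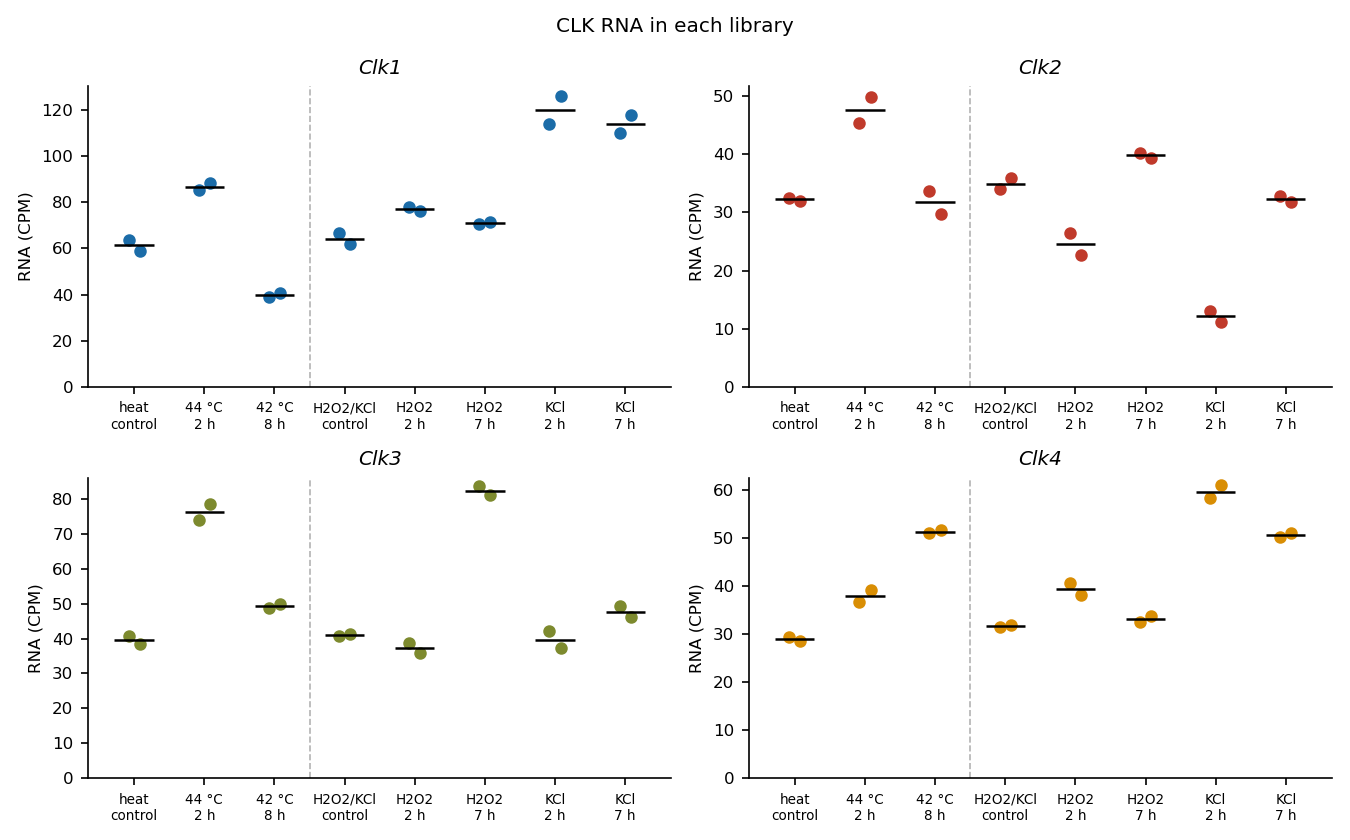
RNA level of each CLK gene in each of the 16 RNA libraries, in library-scaled counts (CPM, linear axis from 0) by group; points are libraries, black bars the mean of 2 libraries and the dashed line separates the heat experiment from the H2O2 and KCl experiment. Clk2 drops to 13.1 and 11.2 CPM at 2 h of KCl, and Clk1 is highest, at 110 to 126 CPM, in the 4 KCl libraries.

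At 44 °C for 2 h the RNA of all 4 CLK genes rose, where 71% of 12747 genes tested were called in either direction and 35.4% were called higher. Clk3 had the largest estimate. Its level was 40.7 and 38.4 CPM (counts scaled to the size of the library, here after TMM scaling) in the heat controls and 73.8 and 78.5 CPM at 44 °C, and the groups did not overlap. The change was 0.95 ± 0.05 on the log2 scale (SE, n = 2 per group), 1.93-fold (edgeR adjusted p = 1.45e-09). Clk1 went from 63.8 and 58.9 CPM to 85.2 and 88.3 CPM, a log2 change of 0.50 ± 0.05 (edgeR adjusted p = 6.26e-07). Clk2, with 32.5 and 32.0 CPM in the controls and 45.3 and 49.8 CPM at 44 °C, rose by 0.56 ± 0.07 (edgeR adjusted p = 3.56e-06). Clk4 had the smallest estimate of the 4, with a rise from 29.4 and 28.5 CPM to 36.6 and 39.2 CPM (0.39 ± 0.06, edgeR adjusted p = 2.96e-05). In the same comparison all 8 fibroblast markers fell (median -0.44, summed level 11100 to 11300 TPM in the controls and 7800 to 8040 at 44 °C), Tubb3 fell by 0.56, and 3 of 4 epithelial markers rose. In bulk RNA, more cells with a transcript and more transcript per cell cannot be told apart.

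At 42 °C for 8 h the close paralogs Clk1 and Clk4 moved in opposite directions, where 63.6% of all genes were called. Clk1 fell to 38.8 and 40.6 CPM, below both controls, a log2 change of -0.63 ± 0.05 (edgeR adjusted p = 1.99e-07). Clk4 rose to 50.9 and 51.6 CPM, above both controls, by 0.82 ± 0.06 (edgeR adjusted p = 2.35e-08). Clk4 therefore passed Clk1: the ratio of Clk4 to Clk1 in TPM was 1.24 and 1.21 in these 2 libraries and lay between 0.438 and 0.526 in each of the other 14 RNA libraries. Clk3, at 48.6 and 49.9 CPM, rose by 0.32 ± 0.05 (edgeR adjusted p = 0.000155), a change of 0.14 on the TPM scale, where the median gene stood at -0.18. Clk2, at 33.6 and 29.8 CPM, straddled its controls and did not pass the test (-0.02 ± 0.07, edgeR adjusted p = 0.783). On the TPM scale Clk2 was called lower (-0.21, limma adjusted p = 0.0095), again with the median gene at -0.18. Of the 8 fibroblast markers 2 rose and 5 fell in this comparison (summed level 9240 to 9580 TPM), and Tubb3 fell by 0.80. Reads that fit both Clk1 and Clk4 are divided between them by estimated probability, and the effect of that division was not tested.

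Between the heat groups themselves all 4 genes differed, where 75.1% of genes were called. At 42 °C for 8 h, Clk1 was lower than at 44 °C for 2 h by 1.13 log2 units (-1.13 ± 0.05, edgeR adjusted p = 1.84e-10). Clk2 and Clk3 were lower too, at -0.58 ± 0.07 and -0.63 ± 0.05, and Clk4 was higher, at 0.44 ± 0.06. The Clk4 difference was 0.20 on the TPM scale, on which the median gene stood at -0.21. By mean CPM, Clk1 was highest at 44 °C, then in the control, then at 42 °C. Clk2 had the same order, but its last 2 groups did not differ past the threshold in the main fit. Clk3 was highest at 44 °C, then at 42 °C, then in the control, and Clk4 at 42 °C, then at 44 °C, then in the control.

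**Figure D2:**
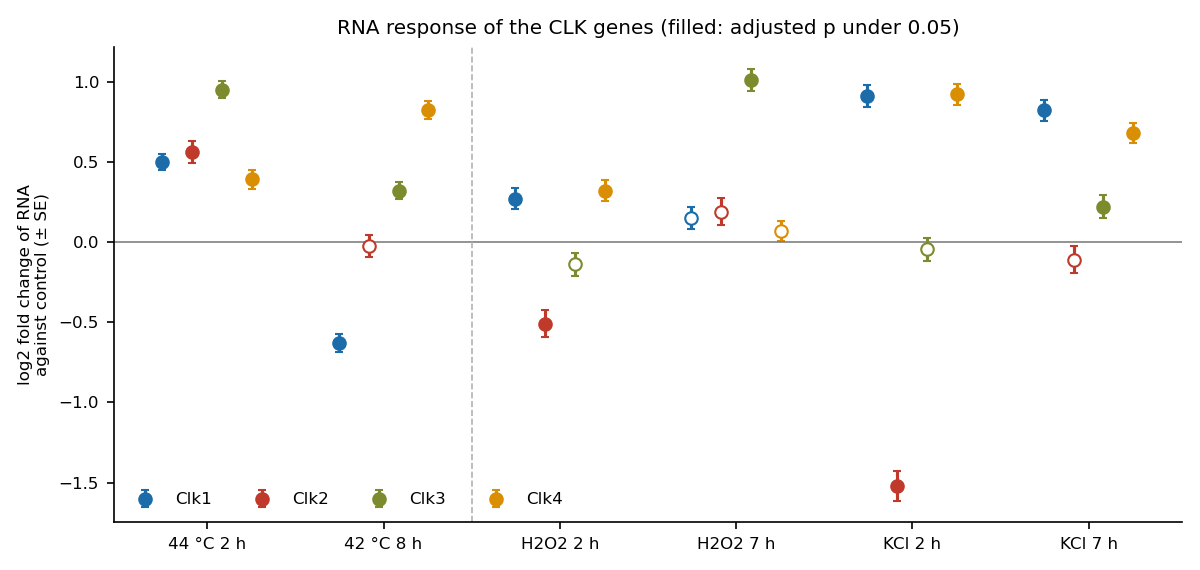
Log2 fold change of CLK RNA against the control of the same experiment (points, with SE from the edgeR fit as bars), for 6 stress groups of 2 libraries each; filled points have an adjusted p under 0.05. All 4 genes are above 0 at 44 °C, while Clk2 reaches -1.52 at 2 h of KCl beside Clk1 at 0.91 and Clk4 at 0.92.

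Under H2O2, 3 CLK genes were called at 2 h and only Clk3 at 7 h, where Clk1 and Clk2 fell just short of the threshold. A change at least as large as that of Clk2 at 2 h was found in 28.8% of genes. For Clk3 at 7 h this share was 25%. At 2 h, where 53.9% of 13256 genes were called, Clk2 fell and Clk1 and Clk4 rose. Clk2 went from 34.0 and 35.9 CPM in the controls to 26.4 and 22.7 CPM, a log2 change of -0.51 ± 0.08 (edgeR adjusted p = 0.000162). Clk1 went from 66.6 and 61.7 CPM to 78.1 and 76.2 CPM (0.27 ± 0.07, edgeR adjusted p = 0.00409), and Clk4 from 31.4 and 31.8 CPM to 40.5 and 38.2 CPM (0.32 ± 0.06, edgeR adjusted p = 0.000828). Neither gene's groups overlapped. Clk3, with 40.6 and 41.3 CPM in the controls, measured 38.7 and 35.9 CPM and did not pass the test (-0.14 ± 0.07, edgeR adjusted p = 0.128). Of the 8 fibroblast markers 1 rose and 4 fell (summed level 9170 to 9240 TPM in the controls and 8290 to 8490 at 2 h), and Cd68 rose by 1.5 and Tubb3 by 0.49. The first H2O2 library at 2 h weighed on 3 of the CLK values. Without it Clk1 was at 0.19 (edgeR adjusted p = 0.079), Clk3 at -0.25 (edgeR adjusted p = 0.0398) and Clk4 at 0.21 (edgeR adjusted p = 0.04). Without the second control, Clk1 was at 0.21 (edgeR adjusted p = 0.0553).

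At 7 h of H2O2, where 70.5% of genes were called, Clk3 alone among the 4 was called. It measured 83.7 and 81.0 CPM, far above its controls, with a log2 change of 1.01 ± 0.07, or 2.01-fold (edgeR adjusted p = 1.18e-08). Clk1 measured 70.7 and 71.4 CPM (0.15 ± 0.07, edgeR adjusted p = 0.0656) and Clk2 40.2 and 39.4 CPM (0.19 ± 0.08, edgeR adjusted p = 0.0526), both above their controls without passing the test. Clk4 measured 32.5 and 33.8 CPM (0.07 ± 0.06, edgeR adjusted p = 0.356). All 8 fibroblast markers fell in this comparison (median -1.32), their summed level from 9170 to 9240 TPM in the controls to 4150 to 4160 TPM. At the same time Cd68 rose by 2.17, Tubb3 by 1.22 and Des by 4.61, with the leukocyte markers summing to 42.7 to 44.7 TPM against 9.59 to 9.98, the neuron markers to 31.5 to 32.8 against 14.4 to 14.6, and the muscle markers to 4.79 to 5.58 against 0.13 to 0.27. Clk1 was called without the first control library (0.20, edgeR adjusted p = 0.0499). Between 2 h and 7 h of H2O2, where 73.4% of genes were called, Clk3 rose by 1.14 ± 0.07 and Clk2 by 0.70 ± 0.08, and Clk4 fell by 0.25 (SE 0.07). Clk1 did not pass (-0.12 ± 0.07, edgeR adjusted p = 0.124). It was called lower at 7 h with only the groups compared (-0.13, edgeR adjusted p = 0.0457) and on the TPM scale (-0.20, limma adjusted p = 0.0185).

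KCl gave the largest fall of any CLK gene in the 6 comparisons with a control. At 2 h, where 54.2% of genes were called, Clk2 fell from 34.0 and 35.9 CPM to 13.1 and 11.2 CPM, 2.87-fold lower (-1.52 ± 0.09, edgeR adjusted p = 9.59e-09). Its share of the TPM of the 4 genes went from 17.4% and 18.6% in the controls to 4.78% and 3.99%. Clk1 rose to 114 and 126 CPM (0.91 ± 0.07, edgeR adjusted p = 5.8e-08) and Clk4 to 58.3 and 60.9 CPM (0.92 ± 0.06, edgeR adjusted p = 3.24e-08), both clear of their controls. Clk3 measured 42.2 and 37.2 CPM, on either side of its controls (-0.05 ± 0.07, edgeR adjusted p = 0.627). Of the 8 fibroblast markers 5 rose and none fell (summed level 10200 to 10400 TPM), Cd68 rose by 0.96, and Tubb3 fell by 0.47.

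After 7 h of KCl, where 68.8% of genes were called, Clk2 was back near its control level, while Clk1 and Clk4 were still high. Clk2 measured 32.8 and 31.7 CPM, under both controls but short of the threshold (-0.11 ± 0.08, edgeR adjusted p = 0.244). It was called lower with only the groups compared (-0.17, edgeR adjusted p = 0.0435). On the TPM scale it was also called lower (-0.21, limma adjusted p = 0.0441), where the median gene stood at -0.07. Clk1 measured 110 and 118 CPM (0.82 ± 0.07, edgeR adjusted p = 8.58e-08) and Clk4 50.2 and 50.9 CPM (0.68 ± 0.06, edgeR adjusted p = 3.87e-07). Clk3, at 49.2 and 46.2 CPM, rose by 0.22 ± 0.07 (edgeR adjusted p = 0.0145). That call was lost without the first control (edgeR adjusted p = 0.0738), without the first KCl library at 7 h (edgeR adjusted p = 0.121) and on the TPM scale (0.14, limma adjusted p = 0.0877). Of the 8 fibroblast markers 4 rose and 3 fell (summed level 8250 to 9080 TPM), and Cd68 fell by 0.73 and Tubb3 by 2.09. Between 2 h and 7 h of KCl, where 68.8% of genes were called, Clk2 rose by 1.41 ± 0.10, or 2.66-fold (edgeR adjusted p = 1.31e-08). Over the same interval Clk4 fell by 0.24 (SE 0.06) and Clk3 rose by 0.27 ± 0.07. The Clk3 difference was not called without the second KCl library at 2 h (0.18, edgeR adjusted p = 0.0655) or the first at 7 h (0.22, edgeR adjusted p = 0.0573). Clk1 did not pass (-0.08 ± 0.07, edgeR adjusted p = 0.274), but was called lower at 7 h on the TPM scale (-0.21, limma adjusted p = 0.0167).

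Set directly against each other at the same time, H2O2 and KCl left different CLK levels. At 2 h, where 51.3% of genes were called, Clk2 was higher in H2O2 by 1.01 ± 0.10 (log2), and Clk1 and Clk4 were lower, at -0.64 ± 0.07 and -0.60 ± 0.06. Clk3 did not pass (-0.09 ± 0.07, edgeR adjusted p = 0.336). At 7 h, where 78.4% of genes were called, Clk3 was higher in H2O2 by 0.79 ± 0.07 and Clk2 by 0.30 ± 0.08, and Clk1 and Clk4 were lower, at -0.68 ± 0.07 and -0.61 ± 0.07. Clk1 and Clk4 thus had like differences between the treatments at both times. By mean CPM both genes were highest at 2 h of KCl, then at 7 h of KCl, 2 h of H2O2, 7 h of H2O2 and in the control. In the main fits the 2 KCl groups did not differ past the threshold for Clk1, nor did the 2 H2O2 groups. Neither Clk1 nor Clk4 at 7 h of H2O2 passed against the control in those fits. By mean, Clk2 was highest at 7 h of H2O2, then in the control and after 7 h in KCl, and lower after 2 h in H2O2 and lowest after 2 h in KCl. Neither group sampled at 7 h passed the main test of Clk2 against the control (edgeR adjusted p = 0.0526 for H2O2 and 0.244 for KCl), though they passed against each other. Clk3 was highest at 7 h of H2O2, then at 7 h of KCl, with the control and both 2 h groups below and not told apart by their tests.

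The Clk2 values rest on how reads were divided at its locus. The tables hold a separate row, Clk2-scamp3, for a readthrough gene (Gm45927 in RefSeq, chr3:89164795-89182770) that starts at the same base as Clk2 and runs to the end of the neighbouring gene Scamp3. Its row held 38.4% and 34.6% of the counts of the pair in the H2O2 and KCl controls, 49% and 53.6% after 2 h in KCl, and 27% and 38.3% at 42 °C for 8 h. With both rows added, the fall at 2 h of KCl was -1.14 (edgeR adjusted p = 4.15e-08) and the fall at 2 h of H2O2 was -0.38 (edgeR adjusted p = 0.00079). The difference between H2O2 and KCl at 7 h was 0.19 in place of 0.30 (edgeR adjusted p = 0.0394). Adding the rows also brought Clk2 past the threshold at 42 °C (-0.18, edgeR adjusted p = 0.0263) and at 7 h of H2O2 (0.18, edgeR adjusted p = 0.049). On its own, the Clk2-scamp3 row fell by 0.66 (SE 0.12) at 2 h of KCl (edgeR adjusted p = 0.000366).

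Clk1 and Clk2 transcripts carried few ribosomes in unstressed cells, and Clk3 was near the middle of all genes. The ratio of mean footprint TPM to mean RNA TPM in the controls was 0.203 for Clk2, 0.227 for Clk1, 0.352 for Clk4 and 0.545 for Clk3, against a median of 0.639 over 10467 genes. Only 6.83% of genes had a lower ratio than Clk2 and 8.81% a lower one than Clk1, while 19.9% were below Clk4 and 40.6% below Clk3. Footprint counts were small: in the 2 controls, Clk1 had 97 and 83, Clk2 48 and 32, Clk3 150 and 172 and Clk4 62 and 57. RNA still in the nucleus counts in the RNA value and carries no ribosome, and its share was not tested.

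Footprints on Clk4 rose at both times of KCl. They went from 15.2 and 15.7 CPM in the controls to 98.6 and 78.2 CPM at 2 h of KCl, a 5.73-fold rise (log2 change 2.52 ± 0.23, edgeR adjusted p = 0.000105), where 6.86% of 10545 genes were called. After 7 h in KCl they measured 52.6 and 63.0 CPM (1.91 ± 0.24, edgeR adjusted p = 0.000235), where 20.4% of genes were called. All 4 KCl libraries lay above both controls. Clk1 footprints went from 23.7 and 22.8 CPM to 93.6 and 63.3 CPM after 2 h (1.75 ± 0.34, edgeR adjusted p = 0.00874) and 55.2 and 60.1 CPM after 7 h in KCl (1.31 ± 0.34, edgeR adjusted p = 0.0175). The groups did not overlap, but at 2 h the Clk1 call was lost without the first control (1.83, edgeR adjusted p = 0.0522), without the first KCl library (1.44, edgeR adjusted p = 0.0796) and on the TPM scale (1.61, limma adjusted p = 0.0593). At 7 h it was lost without any 1 of the 4 libraries (edgeR adjusted p between 0.0638 and 0.0988) and on the TPM scale.

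Clk2 footprints fell at 2 h of KCl, on very few reads. The 2 controls had 48 and 32 counts and the 2 KCl libraries 11 and 0 (-2.44 ± 0.68, edgeR adjusted p = 0.0494). The count of 0 stands against an upper limit of 3 counts, for counting error only, which leaves out how reads were divided at the locus. In that library the Clk2-scamp3 row held 35 counts, 100% of the pair. The share of that row over the footprint libraries ran from 6.76% to 100%. The Clk2 call was lost under 9 of 13 alternatives, among them the counts of both rows of the locus added (-0.91, edgeR adjusted p = 0.124). It was also lost without the first control (-2.16, edgeR adjusted p = 0.19), the second control (-2.62, edgeR adjusted p = 0.0706) or the second KCl library (-1.47, edgeR adjusted p = 0.207). After 7 h in KCl, Clk2 had 23 and 15 counts (-0.71 ± 0.56, edgeR adjusted p = 0.394). Clk3 footprints measured 36.7 and 47.3 CPM in the controls, 42.6 and 48.7 CPM after 2 h in KCl, and 60.1 and 51.9 CPM after 7 h, with changes of 0.12 ± 0.24 and 0.42 ± 0.24 that did not pass (edgeR adjusted p = 0.846 and 0.233).

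Under H2O2, Clk3 footprints at 7 h were called, where 27.7% of genes were. They measured 69.8 and 98.8 CPM, above both controls, with a change of 1.01 ± 0.23 (edgeR adjusted p = 0.00604) beside 1.01 ± 0.07 in RNA. The call was lost without the second H2O2 library at 7 h (0.69, edgeR adjusted p = 0.11) or the first control (0.79, edgeR adjusted p = 0.0721). Clk1 (0.83 ± 0.34), Clk2 (0.81 ± 0.50) and Clk4 (0.28 ± 0.25) did not pass at 7 h. At 2 h none of the 4 genes was called in footprints by edgeR, where 1.91% of genes were, none had an unadjusted p under 0.05, and DESeq2 and limma called 0 as well. The first H2O2 library at 2 h was the shallowest of the footprint libraries, with 1460751 counts, and held 20 counts of Clk1 (13.3 CPM) where the second held 205 (39.8 CPM).

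**Figure D3:**
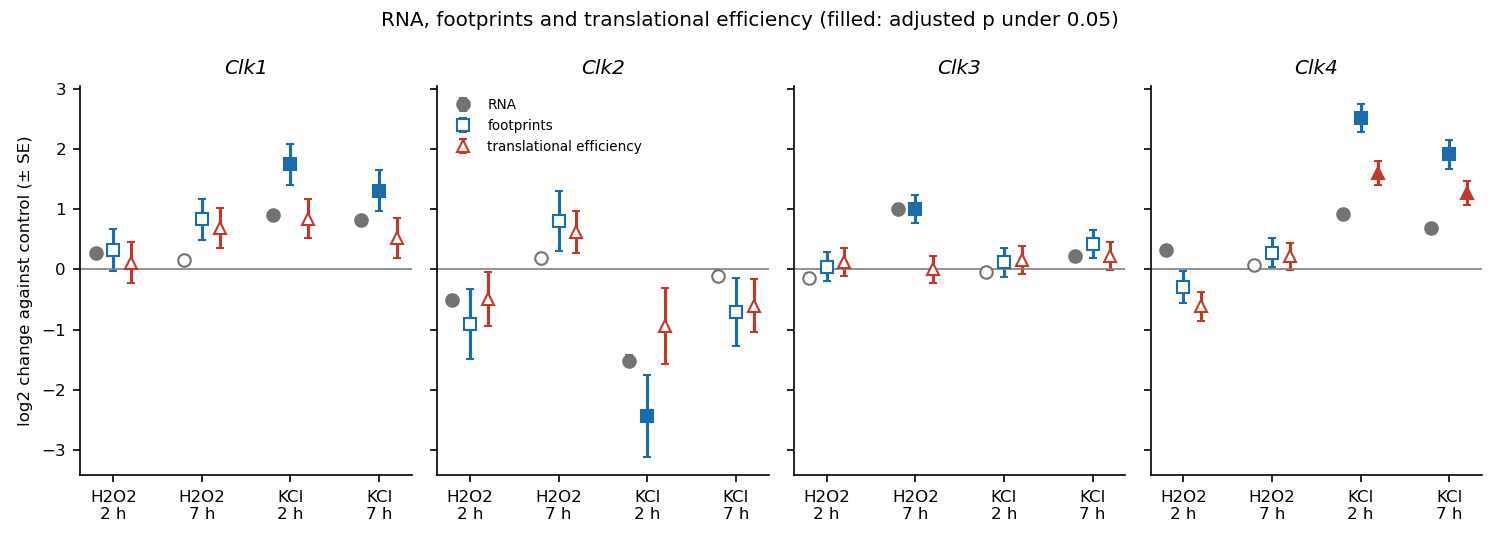
Log2 change against the control (± SE) of RNA, footprints and translational efficiency for each CLK gene at 2 h and 7 h of H2O2 and KCl, from edgeR fits on 2 libraries of each kind per group; filled symbols have an adjusted p under 0.05. Translational efficiency is filled only for Clk4 under KCl, at 1.60 and 1.27.

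Translational efficiency, the footprint level of a gene relative to its RNA level, came from the interaction term of a single fit to the 10 footprint and 10 matching RNA libraries. Clk4 was called at both times of KCl. It rose by 1.60 ± 0.20 at 2 h, or 3.03-fold (edgeR adjusted p = 7.87e-05), where 12.8% of 10480 genes were called, and by 1.27 ± 0.21 at 7 h, or 2.41-fold (edgeR adjusted p = 0.00191), where 5.57% were. The ratio of mean footprint TPM to mean RNA TPM of Clk4 went from 0.352 in the controls to 1.09 after 2 h in KCl, and was 0.736 after 7 h. Both calls held in all 17 alternatives run for each, with changes between 1.42 and 1.75 at 2 h and between 1.01 and 1.39 at 7 h. These alternatives all start from the same division of shared reads between Clk1 and Clk4, whose effect on the footprints was not tested. The ratio of Clk4 to Clk1 in footprint TPM, 0.67 and 0.903 in the controls, was 1.21 and 1.59 after 2 h in KCl, and 1.04 and 1.05 after 7 h, while the same ratio in RNA stayed between 0.469 and 0.526 in the RNA libraries of the same groups. With 2 libraries against 2 an exact permutation test cannot go below p = 0.333, so that ratio is given without a test.

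None of the other changes in translational efficiency passed. Clk1 had 0.84 ± 0.33 at 2 h (edgeR adjusted p = 0.101) and 0.52 ± 0.33 at 7 h of KCl (edgeR adjusted p = 0.398). Whether Clk4 differed from Clk1 in this respect was not tested. Clk3 stayed within 1 SE of 0 at 2 h (0.16 ± 0.23) and 7 h (0.22 ± 0.23) of KCl. Clk2 had -0.94 ± 0.63 at 2 h and -0.60 ± 0.44 at 7 h, and the first of these was 0.22 with the rows of its locus added. Under H2O2, where 11.4% of genes were called at 2 h and 9.27% at 7 h, none of the 4 passed in edgeR. At an unadjusted p under 0.05 there was 1 at 2 h and 0 at 7 h, and limma on TPM called 1 at 2 h, Clk4 (-0.86, limma adjusted p = 0.0278). The values nearest to the threshold were Clk4 at 2 h (-0.61 ± 0.24, edgeR adjusted p = 0.108, unadjusted p = 0.0216) and Clk1 at 7 h (0.69 ± 0.33, edgeR adjusted p = 0.217). Clk1 at 2 h of H2O2 turned from 0.11 to -1.12 (edgeR adjusted p = 0.0407) without the second, deeper footprint library.

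Clk1 transcripts also changed in the length that the tables imply. Expected counts divided by TPM, scaled per library over 8217 genes with at least 200 counts in every RNA library, give the mean length of a gene's transcripts as the authors' counting weighted them. For Clk1 this length was 89.1% and 90.0% of the heat control at 42 °C for 8 h, where the central 95% of genes lay between 95.8% and 104% in the first library and between 95.4% and 104% in the second. It was 93.3% and 93.8% of control at 2 h of KCl, also below the central range, which began at 94.5% in the first library and at 93.9% in the second. After 7 h in KCl it was 102% and 101%. At 44 °C it was 97.6% and 97.7%, and in the 4 H2O2 libraries 98.1% to 98.7%. For Clk4 the length was 96.4% and 96.9% at 42 °C. After 2 h in KCl it was 96.2% and 97.0%, after 7 h 97.2% and 95.3%, and under H2O2 103% to 104%. Clk3 stayed between 98.1% and 103% over all groups, and Clk2 was at 100% throughout. A row counted with a single length would give 100% under any stress, and whether Clk2 was such a row was not tested. Which transcripts or introns are behind these lengths was not analysed here.

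**Figure D4:**
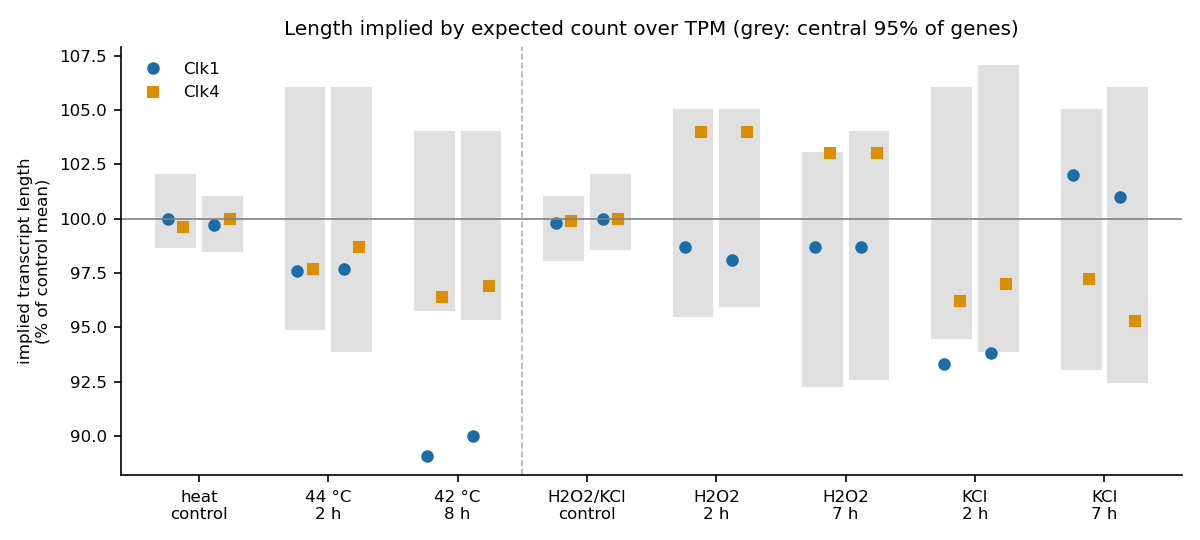
Implied transcript length of Clk1 and Clk4 in each of the 16 RNA libraries, as a percent of the control mean of the same experiment; grey boxes span the central 95% of 8217 genes in that library. Clk1 lies below the boxes at 42 °C for 8 h, at 89.1% and 90.0%, and less far below them at 2 h of KCl, at 93.3% and 93.8%.

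The substrates and partners of the CLK genes were described from 3 lists, chosen, like the CLK genes themselves, with results of these data already known. The medians and counts of a list describe these genes and are no test of it. Of 12 SR protein genes tested, 5 rose and 4 fell at 44 °C (median log2 change 0.02), led by Srsf7 at 0.52 and Srsf5 at -0.53. At 42 °C, 10 rose and 1 fell (median 0.30), with Tra2a, a splicing activator, highest at 0.54 and Srsf5 at -0.28, but on the TPM scale the counts were 6 and 2. At 2 h of H2O2, 6 rose, led by Srsf11 (0.66), and none fell (median 0.19), and at 7 h 6 rose, led by Tra2a (0.69), and 3 fell, led by Srsf5 at -0.48 (median 0.17). At 2 h of KCl 5 rose, led by Srsf10 (0.42), and 2 fell, led by Srsf4 at -0.21 (median 0.11). The 2 falls became 0 without the second control, 1 with any of the other 3 libraries left out, and 0 with only the groups compared. After 7 h in KCl, 7 rose, led by Srsf11 (0.89), and 4 fell, led by Srsf3 at -0.58 (median 0.20). On the TPM scale at 7 h of KCl, 4 rose and 4 fell. The 7 rises became 4 without the first control or the first KCl library, and the 4 falls became 2 without the second control or either KCl library. The median over all genes tested was within 0.08 of 0 in each of these comparisons. Over all genes tested, 35.4% rose and 35.7% fell at 44 °C, and 31.7% and 31.9% at 42 °C. In H2O2, 27.3% rose and 26.5% fell at 2 h, and 39.4% and 31.1% at 7 h. In KCl the shares were 27.2% and 27% at 2 h, and 37.2% and 31.6% at 7 h. In footprints 1 SR gene rose (Srsf4) and 1 fell (Srsf5) at 7 h of H2O2, Srsf11 rose at 7 h of KCl, and none was called at 2 h of either.

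A further list held kinases that act on SR proteins or are related to the CLKs (the SRPK, DYRK and HIPK families and Prpf4b). Their RNA rises outnumbered falls in every stress group on TMM-scaled counts, by most under KCl. At 2 h of KCl 10 of 12 rose and none fell (median 0.54), and on the TPM scale 6 rose and 1 fell. At 7 h of KCl 10 rose and none fell (median 0.71), or 9 and none on the TPM scale. Dyrk4 headed both lists of rises but on counts of 8 and 3 at 2 h and 2 and 4 at 7 h, against 0 in both controls, so no fold is given, and without it the medians were 0.53 and 0.69. At 7 h of H2O2 5 of the 12 rose, led by Dyrk3 (0.69), and 4 fell, led by Hipk2 (-0.96). At 2 h of H2O2 7 rose, Dyrk4 among them (36 and 28 counts, with 0 in both controls), and 1, Srpk2, fell (-0.23), and on the TPM scale 4 rose and 2 fell. At 44 °C 8 of 11 rose, led by Prpf4b (0.59), a kinase of the spliceosome, and Srpk2 fell (-0.35), with 7 and 2 on the TPM scale. At 42 °C 6 rose, led by Hipk4 (0.87), and 2 fell, led by Dyrk1b (-0.46), and 2 and 3 on the TPM scale. In footprints at 2 h of KCl, 1 of 10 tested rose (Dyrk3, 1.06) and 4 fell, led by Hipk1 (-2.34), and at 7 h of KCl 2 rose and 2 fell. With a library left out these were 0 to 1 and 2 to 3 at 2 h, and 0 to 2 and 0 at 7 h. At 2 h of H2O2 none was called, and at 7 h 1 rose (Hipk3, 1.19) and 2 fell, led by Hipk2 (-1.39). In translational efficiency none of the 10 rose, and 4 fell after 2 h in KCl, led by Hipk2 (-2.66), and 3 after 7 h. In H2O2, 5 fell after 2 h and 2 after 7 h. Rises were few over all genes as well, at 375 of 10480 after 2 h and 177 after 7 h in KCl. The lack of a rise among 10 kinases therefore does not set them apart. Over all 10480 genes tested for efficiency, KCl calls were 962 lower and 375 higher (2 h), then 407 and 177 (7 h). H2O2 calls, lower first, were 782 and 417 (2 h), then 479 and 492 (7 h). Over all 10545 genes tested in footprints, KCl calls were 534 lower and 189 higher (2 h), then 1037 and 1111 (7 h). H2O2 calls, lower first, were 81 and 120 (2 h), then 1115 and 1810 (7 h). The RNA shares over all genes are those given beside the SR genes.

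Ppp1r10, the nuclear PP1 targeting subunit PNUTS, was the member of the 5 PP1 genes with the largest rise at each of the 3 groups sampled at 2 h. It rose by 0.64 ± 0.06 at 44 °C, 1.73 ± 0.07 at 2 h of H2O2 (edgeR adjusted p = 6.47e-11) and 1.55 ± 0.07 at 2 h of KCl (edgeR adjusted p = 3.15e-10). In the groups sampled at 7 h or 8 h it fell, by 0.62 (SE 0.06) at 42 °C, by 0.17 (SE 0.07) in H2O2 and by 0.37 (SE 0.07) in KCl. Its footprints rose by 2.34 ± 0.21 and 2.38 ± 0.21 at 2 h of H2O2 and KCl. The other 4 PP1 genes gave no rise at any of these 2 h groups, and Ppp1ca, a catalytic subunit, fell by 0.26 (SE 0.04) at 44 °C and 0.21 (SE 0.06) at 2 h of H2O2.

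The authors' tables of transcription past gene ends hold 5 pairs of neighbouring genes with a CLK gene, of 6399 pairs, and none of them contains Clk4. In these tables a downstream-of-gene (DoG) call marks transcription that continues past the upstream gene, and a read-in call marks that it reaches the downstream gene. The pair of the Clk2 and Scamp3 locus with Fam189b downstream was the only one of the 5 with a read-in call. It was called for read-in in 0 of 4 control and 8 of 12 stress libraries, and for a DoG in 1 of 4 and 10 of 12, where a single library had read-in calls in 0.547% to 2.95% of pairs and DoG calls in 19.4% to 35.7%. The deposited read-in estimate, a ratio whose formula no source used here states, was 0.011 and 0.0282 in the heat controls, 0.117 and 0.107 at 44 °C and 0.184 and 0.216 at 42 °C. It was 0.00847 and 0.052 in the H2O2 and KCl controls, 0.0936 and 0.115 after 2 h in H2O2, and 0.0414 and 0.0772 after 7 h. In KCl the estimate reached 0.556 and 0.476 after 2 h, then 0.215 and 0.342 after 7 h. Each stress group except 7 h of H2O2 lay above the controls of its experiment with no overlap. The upstream unit of this pair includes Scamp3, which ends past Clk2. Mean Scamp3 RNA was 99.2 CPM after 2 h in KCl, near its control mean of 107 CPM. Mean Clk2 RNA was 12.2 CPM in that group, its lowest, with a control mean of 34.9 CPM. A link between the read-in estimate and the fall of Clk2 was not tested.

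**Figure D5:**
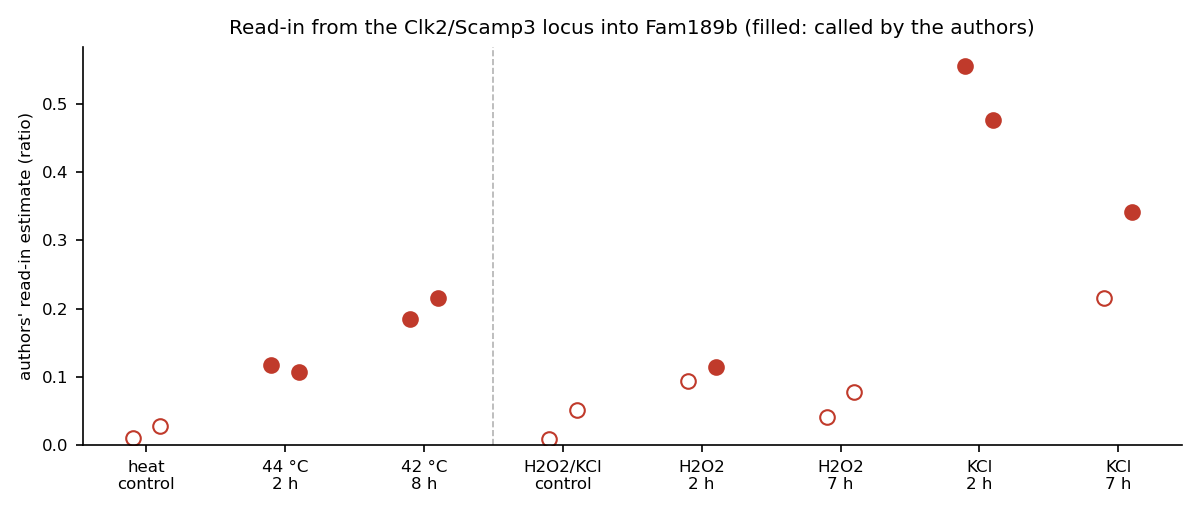
The authors' read-in estimate (a ratio, linear axis from 0) for the pair of the Clk2 and Scamp3 locus and its downstream neighbour Fam189b in each of 16 RNA libraries; filled points are those with a read-in call. The 2 libraries at 2 h of KCl are highest, at 0.556 and 0.476.

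The other 4 pairs had DoG calls without read-in. Clk1 upstream of Kctd18 had a DoG call in 0 of 4 control and 4 of 12 stress libraries, 2 of them the libraries at 2 h of H2O2. Ppil3 upstream of Clk1 was called in 1 of 4 and 7 of 12 libraries, with read-in estimates into Clk1 of at most 0.00626 in the libraries called. Clk3 upstream of Cyp1a2 was called in 0 of 4 and 4 of 12 libraries, and Arid3b upstream of Clk3 in 1 of 4 and 1 of 12. In the pairs listed, no library had a read-in call into a CLK gene.

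The pattern of each CLK gene over the 16 RNA libraries was set beside that of 9115 genes by Pearson correlation of log2 CPM, centred on the control of the same experiment. These values are descriptions over libraries that share 2 controls. For Clk1 the nearest genes were Lamp2 (r = 0.947), Ube2h (0.946) and Gla (0.937). For Clk2 they were Dvl3 (0.982), Usb1 (0.972) and Pfas (0.971), for Clk3 Polr2g (0.969), H2afj (0.956) and Kdm1b (0.954), and for Clk4 Brd1 (0.972), Shb (0.956) and Ripk2 (0.945). By rank correlation 2 of the 3 genes named for Clk1 were again among its first 3, but 0 of those for Clk2, and 1 each for Clk3 and Clk4. Among the first 50 by rank were all 3 for Clk1 and for Clk4, 1 for Clk3 and 0 for Clk2. Among the CLK genes themselves the highest r was 0.637, between Clk2 and Clk3, and Clk1 with Clk4 gave 0.277.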

How the data were processed

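The deposited expected counts and TPM values per gene are, per the file headers, RSEM output; per the submitters' processing notes, STAR, RSEM and Bowtie and the build mm10 were used, with versions, annotation and read filters not given in the sources used here. The authors deposited expected counts as whole numbers, which were used as they are. The authors also deposited TPM for the same libraries, and true or false DoG and read-in calls with a read-in estimate (a ratio) for pairs of neighbouring genes. Labels gave each library's group, and 12 columns that match no labelled sample were not used. Of 20430 symbols, 19885 were in RefSeq (GRCm38.p6).

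Differences in expected counts were tested in R 4.3.3 by edgeR 4.0.16 (glmQLFit and glmQLFTest) after filterByExpr and TMM scaling, and p-values were adjusted by Benjamini-Hochberg across every gene fitted, at a threshold of 0.05; SE is the log2 change divided by the square root of F. The heat RNA, H2O2 and KCl RNA, and footprint libraries were fitted separately. Translational efficiency was an interaction term with scaling factors computed within each kind of library. CPM in the text is after TMM scaling. The edgeR test was tried on simulated counts with 200 changed genes, for a single comparison in each fit. The other calculations were not tried in this way. Alternatives were DESeq2 1.42.0, RLE factors, no filter, only the groups compared, a replicate block, limma 3.58.1 (voom on the counts, or log2(TPM + 1) or log2(TPM + 0.1)), each library left out, and, added after seeing the data, the sum of both Clk2 rows. Depth was 24441877 to 45244430 counts for RNA and 1460751 to 5168537 for footprints, and no 2 replicates held identical values. The CLK genes and the lists were chosen with earlier results of these data known; from each list the member with the largest rise and fall past the threshold in an RNA comparison against a control could be named, with other names chosen after their values were seen. Like-pattern genes were the 3 with the highest Pearson r among genes with a mean log2 CPM of at least 3.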

Additional observations from a re-analysis of the deposited data

Results flagged for a closer look

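Several CLK genes differed between 2 stress groups of the same kind, by the direct edgeR contrast between those groups (adjusted p under the threshold, 2 libraries each). For the 8 h at 42 °C against the 2 h at 44 °C, the log2 difference was -1.13 for Clk1, -0.58 for Clk2, -0.63 for Clk3 and 0.44 for Clk4. Between 7 h and 2 h of H2O2 it was 0.70 for Clk2, 1.14 for Clk3 and -0.25 for Clk4. Between 7 h and 2 h of KCl it was 1.41 for Clk2, 0.27 for Clk3 and -0.24 for Clk4. With 73.4% of all genes called between the H2O2 times and 68.8% between the KCl times, a call by itself sets no CLK gene apart.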

How the results depend on the processing

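Over 19 comparisons of 4 genes, the log2 changes kept direction and side of the threshold in 965 of the alternative values, lost the call in 32, gained one in 23 and turned in 31.

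The number of CLK genes called moved by over 1.5 times as follows. In RNA at 7 h of H2O2 it was 1 and became 2 with the replicate block, with the Clk2 rows added, and over left-out libraries ranged from 1 to 2. In footprints at 7 h of H2O2 it was 1 and became 2 with only the groups compared (0 to 1 with a library left out). In footprints at 2 h of KCl it was 3 and became 1 on each TPM setting (1 to 2 with a library left out), and at 7 h of KCl it was 2 and became 1 on each TPM setting and with any library left out. In translational efficiency it was 0 at 2 h of H2O2 and 1 on the TPM scale (0 to 1 with a library left out), 0 at 7 h of H2O2 and 1 with only the groups compared, and 1 at 2 h of KCl and up to 2 with a library left out. The cause was not tested.

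Values are given as log2 changes, with the lowest and highest over left-out libraries. Values that turned sign were all short of the threshold in the main fits. In RNA these were Clk2 at 42 °C (from -0.12 to 0.059, the latter without its second library), Clk4 at 7 h of H2O2 (-0.052 and -0.053 on the TPM scales), Clk3 at 2 h of KCl (from -0.14 to 0.043, the latter without its second library) and Clk3 between H2O2 and KCl at 2 h (0.024 on the TPM scales, and from -0.18 to 0.0011, the latter without the first KCl library). In footprints at 2 h of H2O2 they were Clk1 (-0.064 and -0.08 on the TPM scales, and from -0.81 without the second library to 0.77 without the first) and Clk3 (-0.0085 and -0.0094 on the TPM scales, -0.13 without the first control, and from -0.15 without its first library to 0.27 without the second). Clk3 at 2 h of KCl gave -0.0039 without the first control and 0.32 without the second. In translational efficiency at 2 h of H2O2, Clk1 gave -0.35 on the TPM scale and from -1.12 without the second footprint library to 0.46 without the first, and Clk3 -0.051 without the first library, and from -0.07 without the first control to 0.36 without the second library. At 7 h of H2O2 Clk3 gave -0.019 with no filter, -0.0052 and -0.0053 with limma voom, -0.27 without the second library and -0.17 without the first control. At 2 h of KCl Clk2 gave 0.22 with its rows added and 0.028 without the second footprint library, and without the first, which leaves only the library with 0 counts, a fitted -9.03 that depends on the prior count and is no estimate of size. Clk3 gave from -0.018 without the first control to 0.35 without the second.

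Same-numbered libraries deviated together with r between -0.025 and 0.12 in the heat RNA, -0.053 and 0.054 in the H2O2 and KCl RNA and -0.38 and 0.42 in the footprints. It was over 0.1 in 1 of 3 group pairs of the heat RNA, 0 of 10 of the H2O2 and KCl RNA and 6 of 10 of the footprints. The main fits did not take the numbers to pair samples. Whether same-numbered footprint libraries shared a batch was not tested. Under the replicate block the Clk2 RNA change at 7 h of H2O2 was 0.19 (edgeR adjusted p = 0.0472).

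Over all genes, RNA calls in 1 direction moved by over 1.5 times at 42 °C against control (4041 higher, 1872 on the TPM scale), 42 °C against 44 °C (4829, 2675) and 2 h of KCl (3609, 2284), and between H2O2 and KCl at 2 h (3212 lower, at least 1892). Footprint calls with their range over settings other than left-out libraries were 120 higher (25 to 165) and 81 lower (2 to 150) at 2 h of H2O2, 1810 (1501 to 2058) and 1115 (568 to 1337) at 7 h, 189 (60 to 206) and 534 (206 to 643) at 2 h of KCl, and 1111 (652 to 1169) and 1037 (627 to 1110) at 7 h. Calls in translational efficiency were 417 (159 to 727) and 782 (441 to 1059), 492 (256 to 782) and 479 (215 to 635), 375 (132 to 691) and 962 (598 to 1129), and 177 (67 to 392) and 407 (154 to 686) in the same order. Footprint counts near or under 100 limit Clk1, Clk2 and Clk4, and 2 libraries per group limit every comparison.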
